A study of Mus musculus with 3 samples.

Results

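Pgk2 encodes the phosphoglycerate kinase of meiotic and haploid male germ cells, and its reads were examined in Ptbp2 HITS-CLIP libraries from mouse testis. The reads were those on the minus strand of chromosome 17 that lay wholly inside a window of 10 kb (mm9 build) around the intronless Pgk2 gene. Of 1727697 deposited reads in all, 71 met this rule. They were chosen by position and strand alone.

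Phosphoglycerate kinase transfers a phosphate from 1,3-bisphosphoglycerate to ADP in glycolysis and so yields ATP. The somatic enzyme comes from Pgk1 on the X chromosome, which is silenced during male meiosis, and the autosomal retrocopy Pgk2 supplies the enzyme to spermatocytes, spermatids and sperm. Pgk2 is transcribed during meiosis and its mRNA is stored and translated later. Ptbp2 is an RNA-binding protein that binds pyrimidine-rich RNA and regulates splicing. In earlier work it was reported to bind the 3′ UTR of the Pgk2 mRNA and was proposed to stabilise it. An intronless transcript offers no splice sites of its own.

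The series holds 1 group, Ptbp2 HITS-CLIP of testes from 8-week-old CD1 males, with 3 libraries, taken here as 1 from each of 3 animals. The testes were whole, so the labels name no cell type, and reads of germ cells and somatic cells are mixed. HITS-CLIP sequences the RNA fragments that are crosslinked to a protein and recovered with it. There was no input, mock or other control library, so the opposite strand and the 50 kb on each side served as background, and neither gives the level of the Pgk2 mRNA itself. More bound RNA per cell and more cells with the RNA cannot be told apart in whole tissue.

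The reads are drawn in 3 display colours, here called classes, and are taken as the 3 libraries, although the labels do not say which animal has which colour. The red class held 493620 reads of the file, the green class 952096 and the blue class 281981. Values are therefore pooled or given for each class singly, without an SD or a p-value between animals. Intervals are 95% Wilson intervals that allow for counting error and not for copies of the same molecule.

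Reads on the Pgk2 strand were confined almost entirely to a single compact stretch. Of the 71 reads, 68 lay between positions 40343923 and 40345548, a stretch of 1626 nt in which no gap exceeded 75 nt. The next read at higher coordinates, on the 5′ side of a minus-strand transcript, lay 283 nt away, and the next on the 3′ side lay 993 nt away. The stretch carried 41.8 reads per kb. Reads covered 1211 of its 1626 nt, which was 74.5%. The mean depth over the stretch was 2.05 reads and the median 2 reads.

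**Figure D1:**
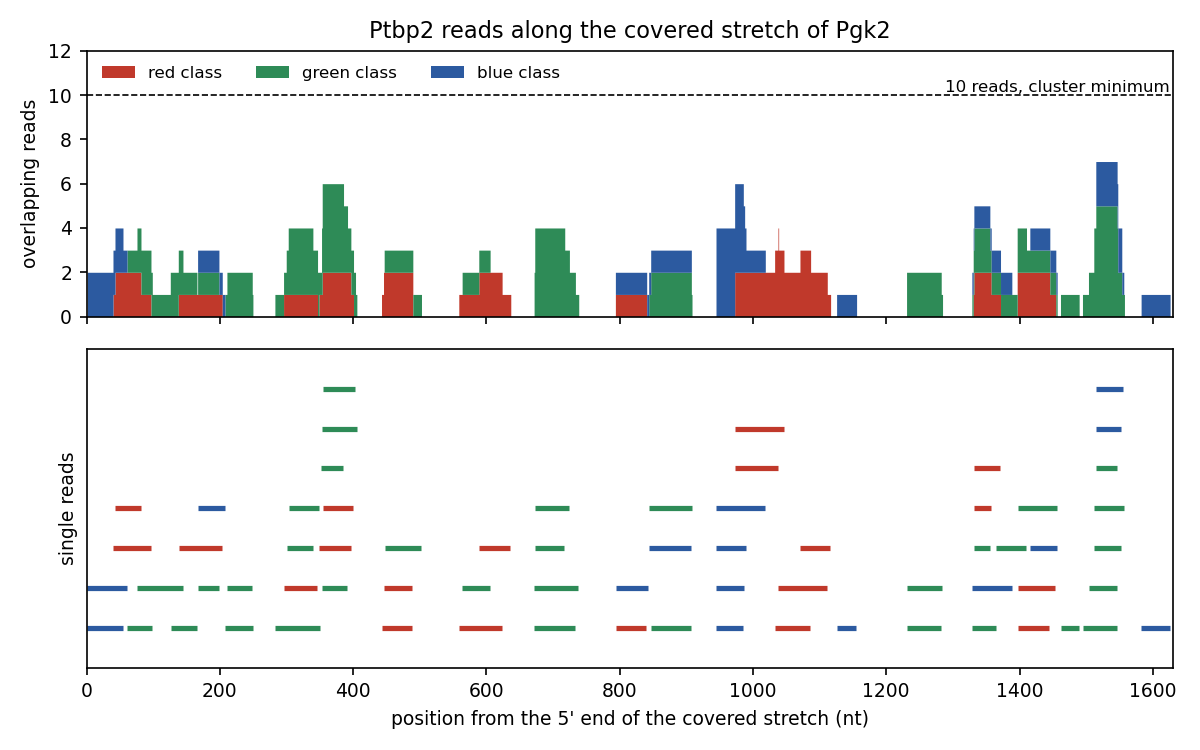
The upper panel plots the number of overlapping Ptbp2 reads (stacked by colour class) against the position from the 5′ end of the covered stretch in nt, and the lower panel draws each of the 68 reads as a line. Reads cover 74.5% of the 1626 nt, with gaps of up to 75 nt, and the highest depth, 7 reads, stays under the dashed line at 10 reads.

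The neighbourhood was close to empty on the same strand. The 50 kb on each side held 3 minus-strand reads together, 2 at lower and 1 at higher coordinates, which was 0.030 reads per kb against 7.1 reads per kb in the window. The density in the window was thus 237-fold that of the flanks, with an interval of 78.9 to 710 that is wide because the flanks held so few reads. Without the red class, which held 2 of the 3 flanking reads, the ratio was 500-fold, and without green or blue it was 185-fold or 183-fold. It was 142-fold with 10 kb on each side and 254-fold with 250 kb on each side. No read crossed an edge of the window. The reads nearest to the lower edge lay 1701 nt inside and 709 nt outside it, and those nearest to the higher edge 4111 nt inside and 10163 nt outside it.

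The plus strand also carried reads in the window, but none of them overlapped the covered stretch. There were 16, from positions 40346192 to 40348488, and the first began 643 nt beyond the 5′ end of the stretch. They made the minus-strand share of the window 81.6% (interval 72.2 to 88.4). Within the stretch itself 68 of 68 reads were on the minus strand, and the 0 plus-strand reads allow a share of up to 4.41%, taking 3 reads as the limit for a count of 0. A further 26 plus-strand reads lay in the 50 kb at higher coordinates and 0 in the 50 kb at lower coordinates. The gene that follows Pgk2 in the GRCm38 gene order is Crisp3, which encodes a cysteine-rich secretory protein, and the gene before it is the pseudogene Tgif2-ps2. The plus-strand reads were not assigned to a gene.

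**Figure D2:**
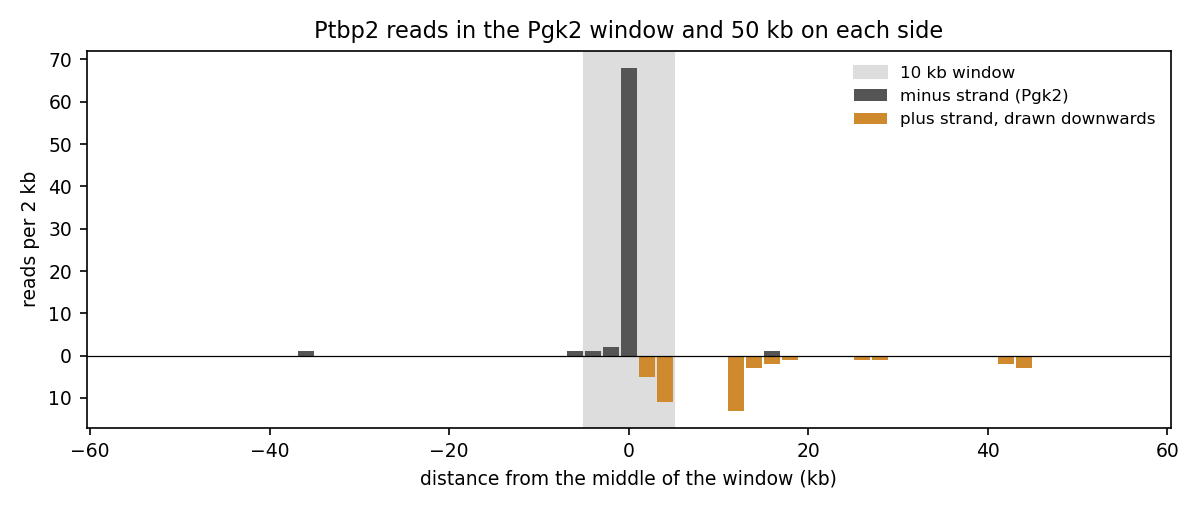
Reads per 2 kb are plotted against the distance in kb from the middle of the 10 kb window (grey), with minus-strand reads upwards and plus-strand reads downwards. The bin in the middle holds 68 minus-strand reads, and no bin outside the window holds more than 1 read of that strand. The plus-strand reads lie on the higher-coordinate side only.

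All 3 classes contributed reads to Pgk2. The red class gave 21 reads, the green class 34 and the blue class 16. Per 1000000 reads of the class this was 42.5 in red (interval 27.8 to 65.0), 35.7 in green (25.6 to 49.9) and 56.7 in blue (34.9 to 92.2). The blue value was the highest and the green value the lowest, and the 3 intervals overlapped. As a share of the Pgk2 reads, green made 47.9% (interval 36.7 to 59.3) against 55.1% of all reads. Red made 29.6% (20.2 to 41.0) against 28.6%, and blue 22.5% (14.4 to 33.5) against 16.3%.

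Each class showed the same contrast with the background. The minus-strand share of the window was 80.8% in red, 81.0% in green and 84.2% in blue. The minus-strand flanks held 2 red reads, 1 green read and 0 blue reads. The density ratio to the flanks was 105-fold in red (interval 27.3 to 404) and 340-fold in green (58.8 to 1966), and in blue it was at least 53.3-fold, with 3 reads over both flanks taken as the limit that a count of 0 allows and the 16 window reads as counted. The lower end of the interval in blue, which includes the counting error of those 16 reads, was 41.7-fold. Each class alone covered part of the stretch, 39.4% in red, 49.5% in green and 31.1% in blue. The median length of the reads in the stretch was 48.5 nt in red, 46 nt in green and 44 nt in blue, against 48, 45 and 47 nt in the whole file.

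**Figure D3:**
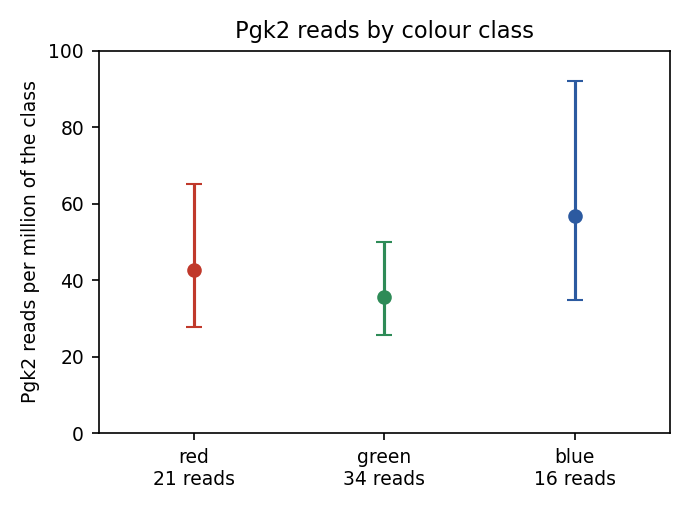
Points give the minus-strand reads in the Pgk2 window per 1000000 reads of each colour class, and bars are 95% Wilson intervals. The values run from 35.7 in green to 56.7 in blue, and the bars of all 3 classes overlap.

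Despite this density, Pgk2 held no cluster. A cluster was defined, as for the whole file, as a run of same-strand reads, each overlapping the next, whose deepest point (its summit) reached 10 reads and to which every class contributed. The tallest point of Pgk2 reached 7 reads, and 0 clusters were called in the window. Outside the mitochondrial chromosome, among 10 kb windows of 1 strand with at least 1 read, 2.59% held a cluster, and among those with as many reads as Pgk2 or more 68.9% did. Of the 962080 runs outside that chromosome, 0.677% were clusters.

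The reads of the stretch fell into 15 separate runs. In 2 of these all 3 classes were present, in 7 of them 2 classes and in 6 of them a single class. The same start, end and strand never had several colours, so a read identical to a listed read could be missing from its class. There were 5 runs with at least 5 reads, and they held 46 of the 68 reads. Positions from here on are also counted in nt from the 5′ end of the stretch, which is the end at higher coordinates.

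The tallest run lay near the 3′ end of the stretch, at nt 1495 to 1557 (40343992 to 40344054). It held 7 reads, all of which overlapped at its summit, with 5 green, 2 blue and 0 red reads. It ended 69 nt before the 3′ end of the stretch. Upstream of it, a run at nt 1329 to 1456 (40344093 to 40344220) held 10 reads, 4 red, 4 green and 2 blue, with a summit of 5. This was the single run of Pgk2 that met the cluster rule when a summit of 5 reads was enough, a setting under which 2.17% of the runs outside the mitochondrial chromosome did.

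Another run lay in the middle of the stretch, at nt 945 to 1116 (40344433 to 40344604). It held 9 reads with a summit of 6, of which 5 were red and 4 blue. As listed, no green read lay in it, although green was the deepest class, and the limit on identical reads applies here too. All 4 blue reads there began at the same 5′ end, at nt 945, and differed at their 3′ ends.

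The remaining pair of runs with at least 5 reads lay at the 5′ side. The run at nt 283 to 405 (40345144 to 40345266) held 10 reads with a summit of 6, of which 3 were red, 7 green and 0 blue. The run at nt 1 to 207 (40345342 to 40345548), which opens the stretch, held 10 reads of all 3 classes, 3 red, 4 green and 3 blue, with a summit of 4. The other 10 runs held 1 to 4 reads each. With every read counted, the tall points of Pgk2 were therefore spread over its 5′ side, middle and 3′ side. As listed, none of the 3 tallest runs held reads of every class. Both points changed when reads of a class with the same 5′ end were counted once, as given below.

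Reads lay on both sides of the midpoint in similar numbers, and a difference between the sides was not detectable at this depth. Of the 68 reads, 36 had their middle on the 3′ side of the midpoint of the stretch, which was 52.9% (interval 41.2 to 64.3), and 32 on the 5′ side. In bins of 200 nt the reads numbered 10, 12, 5, 5, 9, 6, 8 and 12 from the 5′ end, with 1 more in the last 26 nt. The highest numbers, 12 reads each, were thus found both at nt 201 to 400 and at nt 1401 to 1600, with mean depths of 2.80 and 2.75 reads. The lowest, 5 reads each, lay between nt 401 and 800. Where the coding sequence ends and the 3′ UTR begins was not analysed here, because no mm9 annotation was used, so reads are placed on the stretch and not on parts of the mRNA. For the same reason the bases under the reads, among them any pyrimidine-rich sites, are not shown.

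Reads on the 3′ side of the midpoint made up a larger share in blue than in the other classes. In red 10 of 20 reads lay there (interval of the share 29.9% to 70.1%) and in green 14 of 33 (27.2% to 59.2%). In blue 12 of 15 did (54.8% to 93.0%). The interval of blue overlapped those of red and green. When reads of a class with the same 5′ end were counted once, 8 of 10 blue reads lay there, against 8 of 18 in red and 12 of 28 in green. No test of this difference was made, since each class is a single library.

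Part of the reads shared an end. The 68 reads had 48 different 5′ ends, and 36 reads lay on 16 shared ones. At 8 of these 16 the reads came from more than 1 class. The largest group was that of 4 blue reads at nt 945, and 2 further 5′ ends, at nt 1397 and nt 1515, were shared by 3 reads each. The 3′ ends were less often shared, with 63 different positions and at most 2 reads at any. Keeping 1 read per 5′ end and class left 56 of the 68 reads, 18 red, 28 green and 10 blue. The highest summit was then 5 reads, reached in the runs at nt 283 to 405, nt 1329 to 1456 and nt 1495 to 1557. Of these, the run at nt 1329 to 1456 held reads of every class, 3 red, 4 green and 2 blue. The run in the middle of the stretch, at nt 945 to 1116, was left with a summit of fewer than 4 reads.

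Against the whole file, Pgk2 stood high by number of reads. By 10 kb window its 71 reads ranked 3105th of 181247 windows of 1 strand with at least 1 read, where the median was 3 reads and 1.76% of windows had as many reads or more. The rank depended on where the grid cut. On a 5 kb grid, which divides the stretch, its window held 45 reads and ranked 4516th of 261199. A 2 kb grid, closer to the length of the stretch, placed it higher, and no shift of that grid was tried. The 2 kb window over Pgk2 held 68 reads and ranked 743rd of 405916, within the 0.190% of windows with as many or more. These were not exactly the 68 reads of the stretch, since the window left out 1 of those and took in 1 from outside. On chromosome 17 the window ranked 63rd of 16639 windows of 2 kb. Read numbers depend on the level of an RNA as well as on binding, and the level was not measured in this series.

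On the 2 kb grid, a comparison added after the data were seen, the tallest site of Pgk2 was low for its number of reads. Outside the mitochondrial chromosome, 769 of the 2 kb windows held as many reads as Pgk2 or more. Their median summit was 22 reads, and 95.4% of them held a cluster, against 1.38% of all 2 kb windows with at least 1 read. Most of the 769 held more reads than Pgk2, however. Among the 346 windows of 2 kb with 60 to 69 reads, the median summit was 17 reads, the 10th percentile 10 and the lowest 6. The 769 windows were all such windows of the file, so their shares are given without an interval. In only 3 of the 769, Pgk2 and 2 others, did the summit not exceed 7 reads, which was 0.390%. The count was 1 of 668, Pgk2 alone, when reads of a class with the same 5′ end were counted once, where Pgk2 had 56 reads and a summit of 5 and the median summit was 15. When those left with the same 3′ end were also counted once, it was 5 of 520. Leaving out blue gave 4 of 909, leaving out red 27 of 873 (3.09%), and leaving out green, the deepest class, 53 of 585 (9.06%). On the 10 kb grid Pgk2 was less extreme. There 353 of the 3196 windows with as many reads or more (11.0%) had a summit of at most 7 reads, and their median summit was 13.

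The width over which reads lie bears on this comparison, since reads held in a short exon overlap more. The 2 kb window over Pgk2 had 1216 covered nt, against a median of 1068 nt in the 769 windows, and 230 of these 769 had as many covered nt or more. Outside the mitochondrial chromosome 256 windows of 2 kb were covered as widely as Pgk2 or more, with a median of 105 reads. Of these, 86.3% held a cluster, and 11 of the 256, Pgk2 included, had a summit of at most 7 reads. Since at most 3 of these 11 held as many reads as Pgk2, most of them had fewer reads than Pgk2. On the 10 kb grid 6158 windows were covered as widely or more, with a median of 70 reads, and 2324 of them had a summit of at most 7, so Pgk2 did not stand apart there. Exons were not analysed here, so mature transcripts without introns could not be compared with each other.

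**Figure D4:**
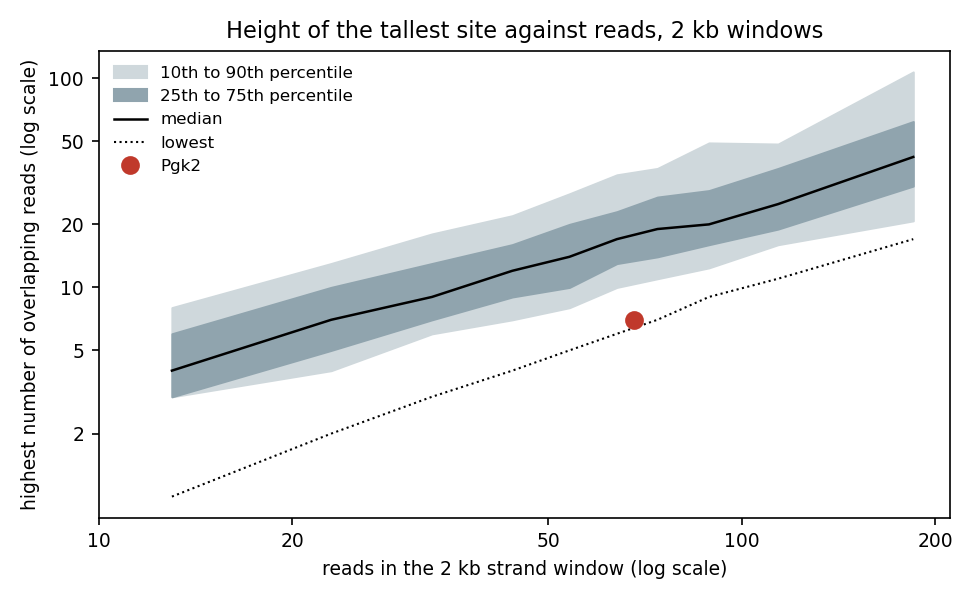
For 2 kb windows of 1 strand with at least 10 reads, the highest number of overlapping reads is plotted against the number of reads in the window, both on log scales, as percentiles in classes of read number. Pgk2 (red point, 68 reads and a summit of 7) lies under the 10th percentile and close to the lowest value found.

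Which genes resemble Pgk2 in these libraries is not given, since no genes were assigned in mm9. Reads shared with near-identical sequence are a further limit. The GRCm38 gene table lists Pgk1 and the pseudogenes Pgk1-ps1, Pgk1-ps3 and Pgk1-rs7, and how reads that map to several places were treated is not given in the sources used here. Reads common to Pgk2 and these sequences could have been dropped or placed on either, and this was not tested.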

How the data were processed

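The deposited data are a single list of mapped reads with their position, strand, score and display colour. The authors mapped them to mm9 with Bowtie, per the submitters' processing notes, which give no version. The deposited score was 0 on every line and was not used. Starts are counted from 0 in the file and are given here counted from 1. No 2 lines, of the same or of different colours, had the same start, end and strand. A read found at identical positions in more than 1 library could thus be listed under 1 colour only. Whether identical reads were removed before deposit, within or across libraries, was not tested.

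The covered stretch joins reads over gaps of up to 100 nt, a distance set after seeing the data. Summits and runs were computed from overlaps of at least 1 nt; reads were assigned to windows by their middle. Pgk2, its runs and its neighbours in the gene table were named by rule; Pgk1 and its pseudogenes were named in addition, as similar sequence. The window and the tests were chosen with earlier results of these data known. Python 3.11.15, numpy 2.4.6, pandas 2.3.3, scipy 1.17.1 and matplotlib 3.10.9 were used, and run calling was tested on simulated data. Lists of testis cell markers were not analysed here, for want of genes in mm9.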

Additional observations from a re-analysis of the deposited data

How the results depend on the processing

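The comparison of summits across 2 kb windows and the joining over 300 nt were added after seeing the data. Of the 71 reads, 37 to 55 remained with 1 class left out, the fewest without green. The number of clusters, 0 as reported, was 1 when a summit of 5 reads sufficed. The other 7 settings could give only 0, since none lowered the minimum of 10 reads and the highest depth was 7. The rank of 3105 among 10 kb windows was 743 with 2 kb windows and 4516 with 5 kb windows, which cut the stretch and left 45 reads. It was 6889 with the 10 kb windows shifted by 5 kb, a grid that by construction cuts the stretch and leaves 46 reads. With 1 class left out, the rank among 10 kb windows ran from 2269 to 3654. The share of dense 2 kb windows with a summit no higher than that of Pgk2, 0.390%, ran from 0.440% to 9.06% with 1 class left out. The minus-strand share ran from 80.8% to 82.2%, and the share of reads 3′ of the midpoint from 45.3% to 62.9%, both within the intervals given. No paired analysis was possible because there is no second group to pair with. With 71 reads in all, and 15 to 33 in the stretch for each class, differences between classes or between parts of the stretch smaller than the intervals were not detectable at this depth.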
